A study of Mus musculus with 24 samples.

Results

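The genes described here are the *Cyp4f* genes of the mouse hypothalamus, chosen as every gene of the deposited table whose symbol starts with *Cyp4f*. Of 13998 genes in the table, 4 met that rule, namely *Cyp4f13*, *Cyp4f14*, *Cyp4f15* and *Cyp4f16*. The family was picked because *Cyp4f14* and *Cyp4f16* were already known to differ by genotype in these libraries, so the genotype differences of the 4 genes are given as a description, with no *P*. Hypothalamus libraries were made from 24 adult male F2 mice, 1 library per mouse. In 12 mice both copies of a Chr 17 subcongenic segment were CAST/EiJ (*cast/cast*), in the other 12 both were C57BL/6J (*b6/b6*), and all 24 were *b6/b6* over the remaining genome. Each mouse had chosen between a carbohydrate/protein (C/P) and a fat/protein diet for 10 days, and had the diets again before dissection. The *cast/cast* mice were picked for high and the *b6/b6* mice for low carbohydrate intake, so genotype and intake cannot be told apart across the 24 mice. The segment carries many linked CAST alleles, so a difference between the genotypes cannot be tied to a single allele.

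Cyp4f proteins are membrane-bound cytochrome P450 enzymes that add a hydroxyl group to the far (omega) end of long-chain fatty acids. Their known substrates include arachidonic acid and leukotriene B4, an inflammatory lipid. Some human and mouse members also hydroxylate the side chains of vitamin E or vitamin K. Cyp4f enzymes receive electrons from the reductase encoded by *Por*, and alcohol and aldehyde dehydrogenases then carry the product on to a dicarboxylic acid.

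RefSeq places 11 *Cyp4f* genes in the GRCm38 genome, 9 of them protein coding and 2 pseudogenes. All but *Cyp4f18*, on Chr 8, lie on Chr 17. The 5 protein-coding genes *Cyp4f17*, *Cyp4f18*, *Cyp4f37*, *Cyp4f39* and *Cyp4f40* were not analysed here. In the deposited table *Cyp4f16* spans chr17:32536629-32551797 on the plus strand, *Cyp4f15* chr17:32685659-32703349 on the plus strand, *Cyp4f14* chr17:32905070-32917342 on the minus strand and *Cyp4f13* chr17:32924688-32947361 on the minus strand (GRCm38). *Cyp4f14* and *Cyp4f13* are 7.35 kb apart, and the 4 genes together cover 411 kb.

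SAGE-Seq counts 1 short tag per transcript near its 3′ end, so the value of a gene depends on whether that tag is its own. The tag was taken to begin at the last CATG of the messenger RNA. This site is an assumption, since the sources used here do not name it, and the tags counted in the libraries were not seen. The last 27-base tag of each gene, read from GENCODE M21 transcripts (GRCm38), is printed 5′ to 3′ with the anchoring CATG in capitals, to show which genes can be told apart.
*Cyp4f16*: CATGtaacctcccacaagtctgaagca
*Cyp4f15*: CATGtgcatcaaggagagtctgcggct
*Cyp4f14*: CATGcagctctgtttccattactttga
*Cyp4f13*: CATGctcctacctctttaaatctctga

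The tags of *Cyp4f16* (chr17:32551518-32551544), *Cyp4f14* (chr17:32905221-32905247) and *Cyp4f13* (chr17:32924721-32924747) lie in the 3′ UTR, in the last exon. None of the 3 occurs in a transcript of another gene, and the nearest CATG-anchored 27 bases of any other gene differ from them by 6, 4 and 7 bases, respectively. The tag of *Cyp4f15* (chr17:32701934-32701960) lies in coding sequence, in exon 10 of 13 and 816 bases before the transcript end. The same 27 bases occur in transcripts of 5 other genes, *Cyp4f13*, *Cyp4f16*, *Cyp4f17*, *Cyp4f37* and *Cyp4f40*, and they are also the last tag of a *Cyp4f40* transcript. The *Cyp4f15* count is therefore uncertain, since tags of these paralogs cannot be told apart from it. The CAST bases within the 4 tags were not used here, and the part that base changes between the strains could have in the counts was not tested.

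*Cyp4f16* encodes a Cyp4f enzyme assigned to the family by sequence. In *b6/b6* mice its normalized count (tag hits divided by the size factor of the library) had a lowest value of 31.0, a median of 51.9 and a highest value of 71.3. In *cast/cast* mice the lowest value was 0.953, the median 4.93 and the highest 10.0. All 12 *cast/cast* mice were below all 12 *b6/b6* mice, so the genotypes did not overlap. The *b6/b6* mean was 52.9 ± 10.7 (SD, n = 12), 11.7 times the *cast/cast* mean of 4.50 ± 3.35 (SD, n = 12). On the scale of log2(normalized count + 1) the difference, *cast/cast* minus *b6/b6*, was -3.56 ± 0.30 (SE). The *cast/cast* libraries held 1 to 11 tag hits of this gene, and 5 of them held 3 hits or fewer, the floor taken as detectable.

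*Cyp4f14* encodes a mouse enzyme known to hydroxylate leukotriene B4 and vitamin E. Its normalized count in *b6/b6* mice ran from 5.66 through a median of 32.0 to 141. In *cast/cast* mice it ran from 0 through a median of 3.15 to 7.28. In the *b6/b6* group 11 of 12 mice were above every *cast/cast* mouse, and mouse 1, at 5.66, lay within the *cast/cast* range. The means were 44.6 ± 42.1 (SD, n = 12) and 2.99 ± 2.53 (SD, n = 12), a ratio of 14.9, and the log2 difference was -3.43 ± 0.45 (SE). No *cast/cast* library held more than 8 hits, 6 held 3 or fewer and 3 held none. A count of 0 allows up to 3 hits in a library, and this floor covers counting error only. The 2 highest *b6/b6* mice, mouse 6 at 141 and mouse 12 at 123, stood well above the other 10, whose highest value was 37.6. Without these 2 mice the *b6/b6* mean was 27.2 ± 10.5 (SD, n = 10) and the log2 difference was -3.04 ± 0.42 (SE), and the ratio of means fell to 9.09. Each mouse had a study number, with a median of 269.5 in the *b6/b6* and 120.5 in the *cast/cast* group. Up to 150 there were 5 *b6/b6* and 7 *cast/cast* mice, and above 150 there were 7 and 5. Genotype and study number were thus partly tied. The ratio was 24.4 among mice with study numbers up to 150, which include mice 6 and 12, and 8.09 among those above 150. It was 7.84 without mice 6 and 12 and *cast/cast* mice 4 and 6.

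*Cyp4f13* had the highest mean of the 4 genes in both genotypes. Its normalized count ran from 36.2 through a median of 71.7 to 132 in *b6/b6* mice. It ran from 15.6 through a median of 68.5 to 160 in *cast/cast* mice. The genotypes overlapped nearly throughout, with 1 *cast/cast* mouse below and 1 above all *b6/b6* mice. The means were 81.9 ± 29.4 and 80.0 ± 37.4 (SD, n = 12 each), and the log2 difference was -0.12 ± 0.27 (SE), less than its error. Its sign was not stable, being 0.16 ± 0.30 (SE) among mice with study numbers up to 150 and -0.41 ± 0.44 (SE) among those above 150.

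*Cyp4f15* was the lowest of the 4 genes in *b6/b6* mice, with normalized counts from 0 through a median of 2.05 to 31.5. In *cast/cast* mice the counts ran from 0 through a median of 7.39 to 17.6. The genotypes overlapped, and the 2 *b6/b6* mice above every *cast/cast* mouse were again mice 6 (26.2) and 12 (31.5). The means were 7.34 ± 10.7 and 7.86 ± 5.78 (SD, n = 12 each), and the log2 difference was 0.68 ± 0.59 (SE). Without mice 6 and 12 the *b6/b6* mean was 3.03 ± 3.74 (SD, n = 10) and the log2 difference was 1.25 ± 0.52 (SE). The sign differed between the mice with study numbers up to 150, at -0.44 ± 0.90 (SE), and those above 150, at 1.52 ± 0.60 (SE), so no direction is given for this gene. In 7 of 12 *b6/b6* and 4 of 12 *cast/cast* libraries it had 3 hits or fewer.

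**Figure D1:**
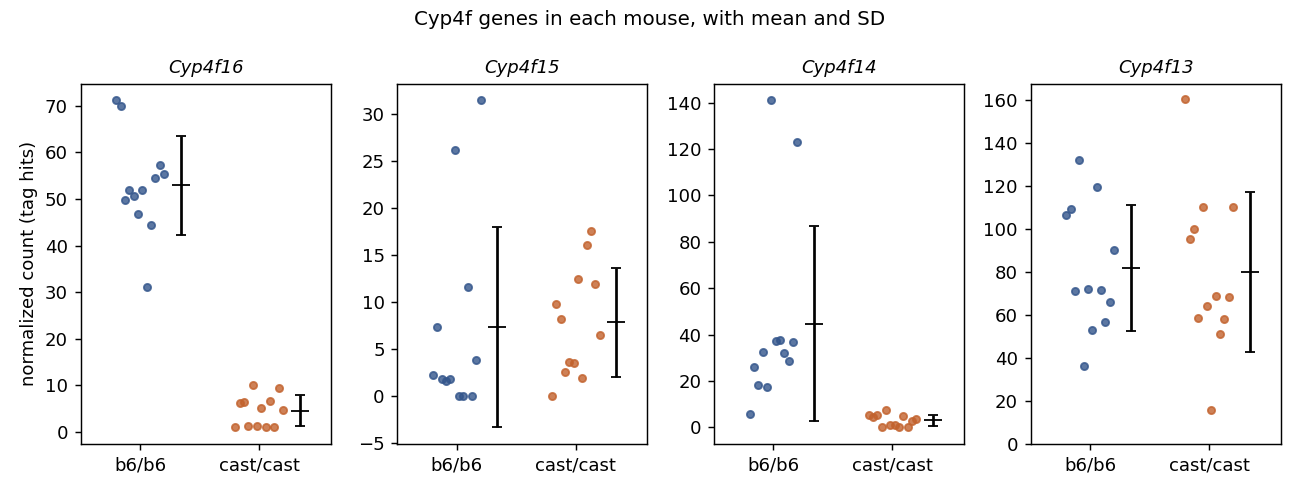
Normalized count (tag hits, linear axis, own scale per gene) of each *Cyp4f* gene, with 1 point per mouse and the mean and SD as a black bar, in 12 *b6/b6* (blue) and 12 *cast/cast* (orange) mice. *Cyp4f16* did not overlap between the genotypes, *Cyp4f14* overlapped by 1 *b6/b6* mouse, and *Cyp4f13* and *Cyp4f15* overlapped.

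By the call used over the whole table, a limma *P* of at most 0.01 and a fold change of at least 1.5, *Cyp4f14* and *Cyp4f16* were called lower in *cast/cast* mice and *Cyp4f13* and *Cyp4f15* were not called. Of all 13998 genes 1.49% were called in either direction, 1.01% lower and 0.471% higher in *cast/cast* mice, and in 0.279% every *cast/cast* mouse was below every *b6/b6* mouse. Since the family was chosen for this contrast, the 2 calls are what the choice rested on and are no test of the family.

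In *b6/b6* mice the means of *Cyp4f16* and *Cyp4f14*, second and next in order after *Cyp4f13*, differed by less than the SD of either. In *cast/cast* mice the order after *Cyp4f13* was *Cyp4f15* (7.86 ± 5.78), *Cyp4f16* (4.50 ± 3.35) and *Cyp4f14* (2.99 ± 2.53, SD, n = 12 each). The summed count of the 4 genes was 187 ± 59.1 in the *b6/b6* group, 1.96 times the 95.3 ± 36.9 of the *cast/cast* group (SD, n = 12 each). The sums overlapped, with 7 *cast/cast* mice below all *b6/b6* mice. Since each transcript gives 1 tag, shares of this sum were compared without dividing by length. *Cyp4f13* made up 44.6% ± 12.2 of the sum under the *b6/b6* and 81.3% ± 14.7 under the *cast/cast* genotype, *Cyp4f16* 30.7% ± 10.1 and 5.24% ± 4.42, and *Cyp4f14* 21.6% ± 12.6 and 2.81% ± 2.07 (SD over mice).

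Between *Cyp4f16* and *Cyp4f13* lie 4 other genes of the table, all of them zinc finger genes by their symbols. *Zfp811* was called lower in *cast/cast* mice, falling from a *b6/b6* mean of 357 ± 83.9 to 212 ± 56.3 (SD, n = 12 each), with a log2 difference of -0.76 ± 0.16 (SE) and a Benjamini-Hochberg adjusted *P* of 0.00939 by limma. *Zfp871*, *Zfp799* and *Zfp870* were not called, with log2 differences of -0.59, 0.44 and -0.46. *Cyp4f13* and *Cyp4f14*, neighbours on the same strand, had log2 differences of -0.12 and -3.43.

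**Figure D2:**
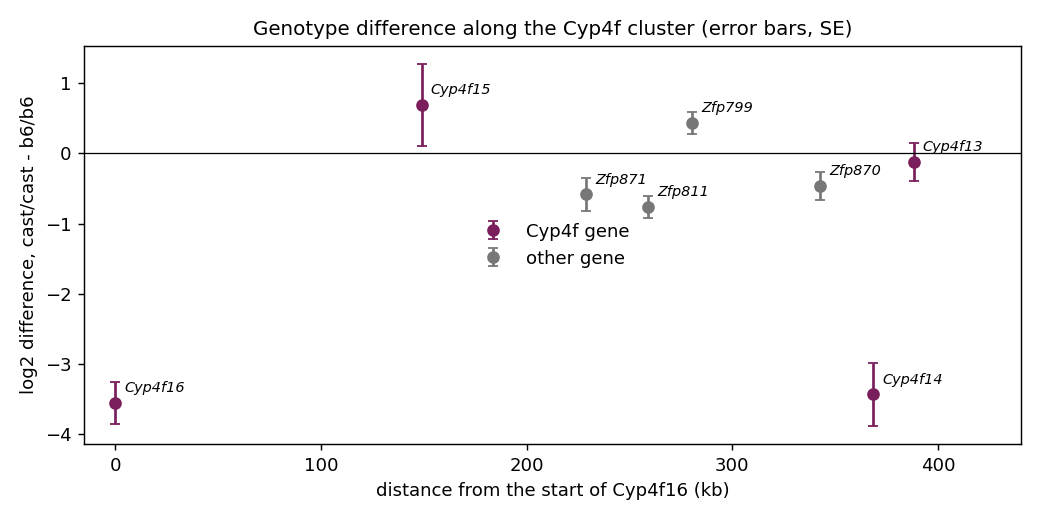
Log2 difference (*cast/cast* minus *b6/b6*, error bars SE) of the 8 genes of the table in the cluster, against the distance in kb of their lower coordinate from the start of *Cyp4f16*. All *Cyp4f* genes are in purple and the 4 other genes in grey. *Cyp4f16* and *Cyp4f14* lay below -3, while *Cyp4f15*, *Cyp4f13* and the 4 other genes lay between -0.76 and 0.68.

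The promoters of the 4 genes share a short motif. Shown are the 120 bases before each RefSeq start site (GRCm38, strand of the gene, 5′ to 3′), with ATTGG, the reverse complement of the CCAAT box, in capitals. They are chr17:32536437-32536556 for *Cyp4f16*, chr17:32685539-32685658 for *Cyp4f15*, chr17:32917343-32917462 for *Cyp4f14* and chr17:32947362-32947481 for *Cyp4f13*.
*Cyp4f16*: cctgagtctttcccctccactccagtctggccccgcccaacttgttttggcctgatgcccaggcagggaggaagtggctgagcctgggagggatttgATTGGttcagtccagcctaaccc
*Cyp4f15*: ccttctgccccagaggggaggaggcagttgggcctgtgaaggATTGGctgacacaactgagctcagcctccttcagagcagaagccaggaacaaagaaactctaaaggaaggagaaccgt
*Cyp4f14*: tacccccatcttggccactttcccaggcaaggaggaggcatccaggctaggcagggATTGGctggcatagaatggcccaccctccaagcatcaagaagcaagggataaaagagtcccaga
*Cyp4f13*: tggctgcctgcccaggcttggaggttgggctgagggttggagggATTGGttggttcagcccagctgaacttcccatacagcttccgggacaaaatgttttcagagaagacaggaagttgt

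The motif was searched as CCAAT or ATTGG, which are the same letters on the 2 strands. It was found in 4 of 4 promoters, beginning at -23 in *Cyp4f16*, -78 in *Cyp4f15*, -64 in *Cyp4f14* and -76 in *Cyp4f13*, counted from the start site. Of 27025 promoters of the same length, 22.1% held it. Those were the first listed of each gene, while the promoters of the 4 genes were those nearest the deposited start. The 4 genes are paralogs, so their promoters are not independent and the 2 shares are no test of enrichment. The match describes these letters in the reference and does not set apart the 2 genes that were lower in *cast/cast* mice. The RefSeq start site of *Cyp4f16* lies 72 bases before the deposited one.

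The 4 genes also differed in how much they varied between mice of one genotype. In *b6/b6* mice the coefficient of variation (CV, SD as a percent of the mean) of *Cyp4f16* was 20.2%, against a median of 41.8% over the 1910 genes within 1.5-fold of its mean, which put it at the 4.03 percentile of them. Counting error alone would give a CV of 13.6%, so the variance of its normalized counts was 2.21 times that of counting. It was 1.78 times with libraries rescaled to the same total. The variance of the tag hits themselves was 1.07 times their mean, close to counting. *Cyp4f14*, with a CV of 94.3%, was at the 91.0 percentile of 1830 genes, and *Cyp4f15*, with a CV of 145%, was at the 98.8 percentile of 851 genes. *Cyp4f13* was in the middle, with a CV of 35.9% at the 43.9 percentile of 2170 genes. The value of *Cyp4f14* rested on mice 6 and 12. Without them its CV was 38.7%, at the 52.5 percentile and beside a median of 37.8% for genes of like level in the same 10 mice. Without them *Cyp4f15* had a CV of 123%, *Cyp4f16* one of 21.8% at the 14.4 percentile and *Cyp4f13* one of 39.2% at the 73.6 percentile. In *cast/cast* mice the CVs were 74.5% for *Cyp4f16*, 84.5% for *Cyp4f14*, 73.5% for *Cyp4f15* and 46.7% for *Cyp4f13*. *Cyp4f15* was at the 78.2 percentile of 1088 genes and *Cyp4f13* at the 73.6 percentile of 2174. No gene of the table had a mean under 6.03 over all mice. Genes with a lower mean in 1 set of mice were there only through higher counts in the others. No percentile is therefore given for *Cyp4f16* and *Cyp4f14* in *cast/cast* mice, or for *Cyp4f15* without mice 6 and 12. The range within 1.5-fold of the *Cyp4f15* mean also reached below 6.03 in both genotypes. Its percentiles above thus rest partly on such genes and are uncertain.

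**Figure D3:**
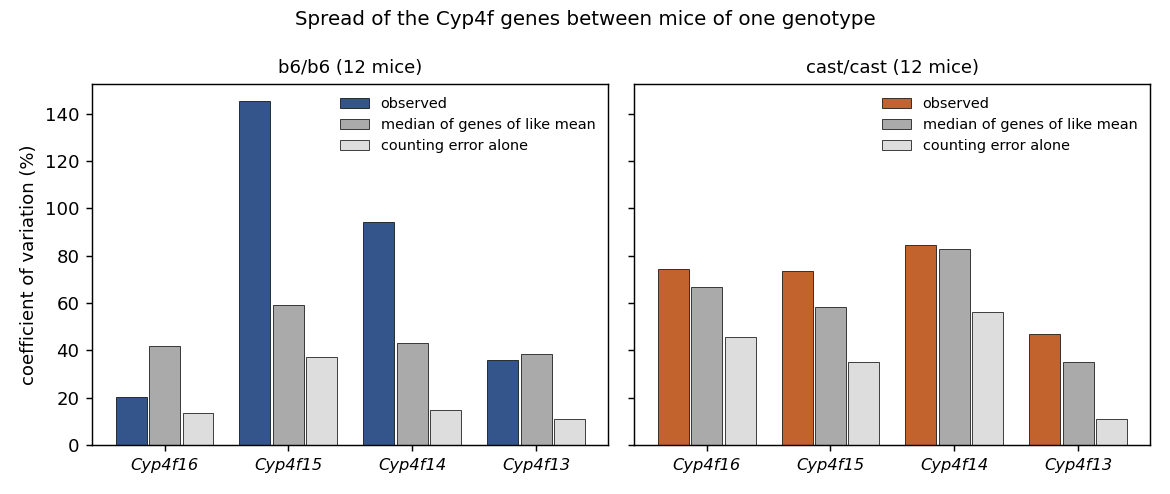
Coefficient of variation (%) between the 12 mice of each genotype for each *Cyp4f* gene (coloured bars), beside the median of genes within 1.5-fold of its mean (dark grey) and the value that counting error alone would give (light grey). In the 12 *b6/b6* mice *Cyp4f16* varied less, and *Cyp4f14* and *Cyp4f15* more, than the median gene of like level, but without mice 6 and 12 the CV of *Cyp4f14* was 38.7%, beside a median of 37.8%. The dark grey bars of *Cyp4f15*, and in *cast/cast* mice those of *Cyp4f16* and *Cyp4f14*, are uncertain. They include genes that are in the table only through higher counts in the other genotype.

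Mice 6 and 12 held the highest 2 values of the *b6/b6* group for both *Cyp4f14* and *Cyp4f15*. These 2 libraries were the highest 2 of 12 in 22.4% of all 13998 genes. Their median correlations with the other libraries were 0.841 and 0.803, and those of *cast/cast* mice 4 and 6 were 0.871 and 0.827, against 0.890 to 0.942 for the other 20. Of 12 blood cell markers, 3 were in the table (*Hba-a1*, *Hba-a2* and *Alas2*), and their summed count was 4999 in mouse 6 and 1704 in mouse 12, against 121 to 1044 in the 10 remaining *b6/b6* libraries and 105 to 782 in the *cast/cast* ones. Their part in the *Cyp4f14* and *Cyp4f15* values was not tested. All 9 astrocyte markers were in the table. In both mice 3 of 9 were above the other 10, beside the 22.4% of all genes, so a count of this kind is not particular to astrocyte markers. The 3 were *Slc4a4* (2060 and 2630, against 376 to 1138), *Gja1*, a gap junction gene (2500 and 2975, against 250 to 504), and *Agt*, the angiotensin precursor (1683 and 2111, against 672 to 1509). *Fgfr3*, a growth factor receptor, was below the other 10 in both (1685 and 1793, against 1878 to 3934). The astrocyte sum, 70.0% of it from *Slc1a2* and *Slc1a3*, stayed within the range of the other 10. Ependymal sums were 488 and 396, below the 499 to 1642 of the other 10. Mouse 12 was above the other 10 in the sums of hypothalamus markers (31371, against at most 22072) and pituitary markers (1602, against at most 1154). The part of these differences in the *Cyp4f* values was not tested. In whole tissue, fewer cells of a type and less RNA per cell cannot be told apart.

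**Figure D4:**
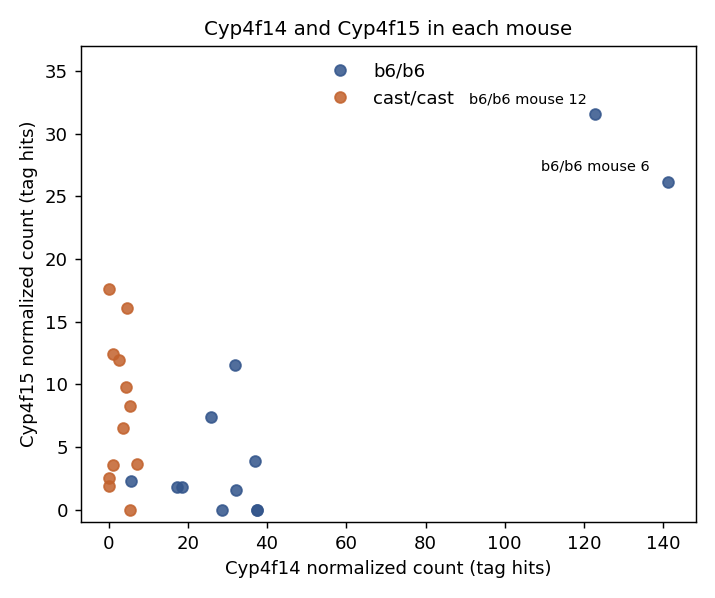
Normalized count of *Cyp4f15* against that of *Cyp4f14* (tag hits, both axes linear), with 1 point per mouse, *b6/b6* in blue and *cast/cast* in orange. *b6/b6* mice 6 and 12 lay apart at 141 and 123 for *Cyp4f14* and 26.2 and 31.5 for *Cyp4f15*.

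Within *b6/b6* mice the 3 *Cyp4f* genes with a mean of at least 20 had no correlation that passed the test. Over 3 pairs, *Cyp4f14* and *Cyp4f16* had a Pearson r of -0.35 (two-sided permutation *P* = 0.254) and a Spearman rho of -0.34 (permutation *P* = 0.275), with adjusted values of 0.761 and 0.802. The r was 0.01 for *Cyp4f13* with *Cyp4f14* and 0.01 for *Cyp4f13* with *Cyp4f16*.

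The genes whose pattern over the 12 *b6/b6* mice was most like that of each *Cyp4f* gene are given as a description, by Pearson r of log2 values over 12041 genes and with no test. For *Cyp4f14* they were *AI597479* (r = 0.97), *Slc4a4*, a sodium bicarbonate cotransporter of astrocytes (r = 0.96), and *Hectd2* (r = 0.96). Without mice 6 and 12 these were 0.93, 0.91 and 0.88. For *Cyp4f16* they were *Ddhd2*, a lipase (r = 0.81), *Asah2*, a ceramidase (r = 0.80), and *Ttpa*, the vitamin E transfer protein (r = 0.79). For *Cyp4f13* they were *Tmem177* (r = 0.85), *Crtc1*, a CREB coactivator (r = 0.84), and *Fzd9*, a Wnt receptor (r = 0.83), and in *cast/cast* mice *Zfp787* (r = 0.88), *Stat2* (r = 0.86) and *Gdpd2* (r = 0.85). Spearman rho was 0.65 to 0.73 for the 3 genes of *Cyp4f16*, 0.76 to 0.79 for those of *Cyp4f14* and 0.78 to 0.89 for those of *Cyp4f13*. It was 0.65 to 0.74 for those of *Cyp4f13* in *cast/cast* mice. The highest 3 of so many genes over 12 mice can reach a high r with no relation between them. The points of each r share their library and its depth.

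Intake was compared with expression within each genotype, where the mice had been picked from 1 tail of the intake range. Of 8 relations computed, none passed after Benjamini-Hochberg adjustment, nor did any have a permutation *P* under 0.05. The relation with the smallest *P* was that of *Cyp4f14* with total kcal over 10 days in *b6/b6* mice, with r = -0.53 (two-sided permutation *P* = 0.0781, adjusted 0.437) and rho = -0.56 (permutation *P* = 0.0632, adjusted 0.339). It was -0.55 without the 2 mice farthest from the median intake, and -0.30 after a line on study number was removed from both measures. *Cyp4f14* with C/P kcal had r = -0.48 (permutation *P* = 0.109, adjusted 0.437), which fell to -0.11 without the 2 farthest mice. *Cyp4f13* with total kcal in *cast/cast* mice had r = 0.37 (permutation *P* = 0.234, adjusted 0.479) and 0.73 without the 2 farthest mice. Study number groups held 5 and 7 mice of a genotype, too few in 1 of them for a correlation of its own.

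The other genes of the pathway were read from lists by role. Of 74 genes tested in 8 pathway lists, none was called higher or lower by limma, against 1.49% of all genes, and 9 had an unadjusted *P* under 0.05, as did 8.13% of all genes. The median log2 difference of the 74 was -0.05, beside -0.02 for all genes. With edgeR and with DESeq2 the call was made for 2 of the 74, *Ptgs1* and *Aldh2*, both lower in *cast/cast* mice, where 2.79% and 2.82% of all genes were called. With study number as a covariate 2 were called, *Ptgs1* lower and *Aldh3b1*, an aldehyde dehydrogenase, higher (0.90), beside 2.23% of all genes. Among mice with study numbers up to 150, 2 were called higher, *Aloxe3*, an epidermal lipoxygenase (1.06), and *Cyb5r2*, a cytochrome b5 reductase (0.95), beside 3.27% of all genes. *Ptgs1*, which makes the prostaglandin precursor, had a limma log2 difference of -0.62 ± 0.24 (SE), and *Aldh2*, a mitochondrial aldehyde dehydrogenase, -0.60 ± 0.28 (SE).

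Electron supply was the first of these lists, with 9 redox partners tested. *Por*, the reductase itself, had means of 2241 ± 356 (*b6/b6*) and 2606 ± 388 (*cast/cast*; SD, n = 12 each), a log2 difference of 0.22 ± 0.11 (SE) with an adjusted *P* of 0.615 by limma. Of 11 other *Cyp4* genes only *Cyp4v3*, a fatty acid hydroxylase, was in the table, with a log2 difference of 0.09 ± 0.18 (SE).

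Substrate supply was covered by 14 genes of arachidonate release and leukotriene synthesis, with differences from -0.66 to 0.41. *Lta4h*, the enzyme that makes leukotriene B4, had the highest mean of them, at 780 ± 248 and 917 ± 257, and a log2 difference of 0.25 ± 0.17 (SE). Of 8 leukotriene and HETE receptors 2 were in the table, *Ltb4r2* and *Gpr75*, and *Gpr75*, a receptor for the omega-hydroxylated arachidonate product, differed by -0.07 ± 0.25 (SE).

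The 12 genes of prostaglandin and thromboxane metabolism ranged from -0.62 to 0.49. Their highest member was *Ptges3*, a prostaglandin E synthase and chaperone partner, at 0.47 ± 0.34 (SE). The 6 genes of epoxide formation and hydrolysis ranged from -0.34 to 0.30, and their highest member *Cyp2j9*, an arachidonate P450, differed by 0.02 ± 0.30 (SE).

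The steps after omega hydroxylation had 18 genes, with a median of -0.29 and a range of -0.82 to 0.76. *Acsl3*, an acyl-CoA synthetase, was the highest of them, at 3826 ± 630 and 3294 ± 532, a difference of -0.22 ± 0.12 (SE). The 12 genes of vitamin E and vitamin K handling ranged from -0.84 to 0.28, and *Vkorc1*, which recycles vitamin K, had a difference of -0.25 ± 0.43 (SE). *Ttpa*, named above for its pattern, differed by 0.09 ± 0.25 (SE).

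Among 16 other cytochrome P450 genes, 1 was called (6.25%, against 1.49% of all genes). It was *Cyp39a1*, a sterol hydroxylase gene that also lies on Chr 17, with means of 23.0 ± 11.9 (*b6/b6*) and 10.2 ± 5.52 (*cast/cast*; SD, n = 12 each). In the *cast/cast* group 8 of 12 mice were below all *b6/b6* mice. Its log2 difference was -1.12 ± 0.28 (SE), with a Benjamini-Hochberg adjusted *P* of 0.0670 by limma, above 0.05. The adjusted *P* was 0.0156 with DESeq2, 0.0183 with libraries rescaled to the same total, 0.0287 without mice 6 and 12, and 0.0133 without the 4 libraries least like the others. It was above 0.05 with edgeR (0.0686) and with 0.5 or 5 added to the counts in place of 1 (0.0726 and 0.0652). The same held with study number as a covariate (0.141) and among mice with study numbers above 150 (0.527). Among mice with study numbers up to 150 *Cyp39a1* was not called, at -0.75, and the 1 call was *Cyp51*, a sterol synthesis gene, higher in *cast/cast* mice (0.97).

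**Figure D5:**
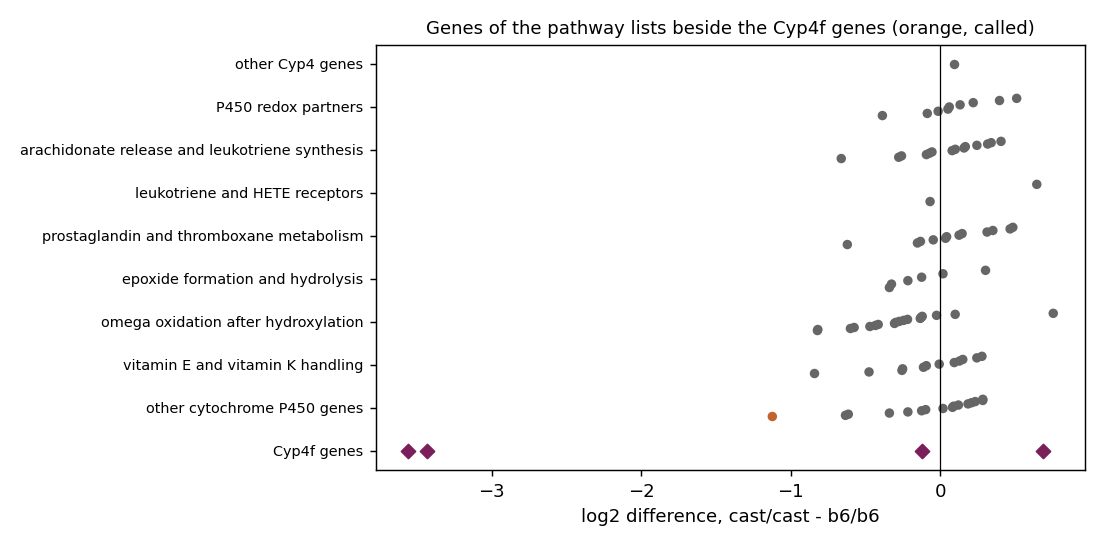
Log2 difference (*cast/cast* minus *b6/b6*) of every tested gene in 8 pathway lists and among other cytochrome P450 genes, with 1 point per gene and called genes in orange, beside the 4 *Cyp4f* genes (purple). *Cyp39a1* at -1.12 was the only called gene outside the family, and no listed gene reached the -3.43 and -3.56 of *Cyp4f14* and *Cyp4f16*.

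The libraries held 7754202 to 13082873 tag hits. Of 19 hypothalamus markers 17 were in the table, with summed counts of 13799 to 31371 (*b6/b6*) and 7272 to 36176 (*cast/cast*), and none of the 17 was called. Of 10 pituitary markers 5 were in the table, with sums of 138 to 1602 and 193 to 2058. *Tekt4*, an ependymal marker on Chr 17, was called higher and *Tcf7l2*, a thalamus marker, lower in *cast/cast* mice, and no gene was called among the choroid plexus, pituitary, astrocyte, microglia, endothelial and mural, meningeal, oligodendrocyte or blood cell markers.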

How the data were processed

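The table gives, per gene and mouse, a signal that the authors deposited after mapping SAGE tags to RefSeq mRNA and the GRCm38/mm10 build with SOLiD SAGE Analysis Software, in a version they had modified, and after dividing the hits by each library's DESeq size factor. Every value was a whole multiple of 1 step per library (100% within 0.02), which gave whole tag hits. The authors' comparison columns (fold changes and *P* values) were not used. The lowest mean of any gene was 6.03, so genes below it were not analysed here. No 2 of the 276 pairs of libraries were close enough to be 1 library (lowest chi-square per gene, 15.4).

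The members and lists were chosen with earlier results of these data known. All 13998 genes (minimum mean, 5) were fitted with limma 3.58.1 with a trend on log2(normalized count + 1), and called at an unadjusted *P* of at most 0.01 with a ratio of means of at least 1.5. Alternatives used edgeR 4.0.16 and DESeq2 1.42.0 on recovered hits, and the fits were tested on simulated counts. Correlations used 100000 resamples. Tags came from GENCODE M21 and promoters from RefSeq. The genes named were the *Cyp4f* genes, called list members (at most 5 per list) and the highest member of each list, the 3 genes most like each *Cyp4f* gene, and called genes within the cluster. The uncalled neighbours, pathway and P450 genes called only under an alternative, single astrocyte markers and the 2 called markers were named after their values were seen.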

Additional observations from a re-analysis of the deposited data

How the results depend on the processing

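*Cyp4f14* and *Cyp4f16* were lower in *cast/cast* mice under every alternative run, with log2 differences of -4.29 to -2.34 and -3.83 to -2.67. A pseudocount of 5 gave the -2.67 of *Cyp4f16*, since it shrinks low counts. The summed level stayed between -1.10 and -0.78. Called genes over the whole table numbered 208 (66 higher, 142 lower), but 391 (60, 331) with edgeR, 395 (82, 313) with DESeq2, 458 (231, 227) for study numbers up to 150, 138 (48, 90) without *b6/b6* mice 6 and 12, and 80 (20, 60) at an adjusted *P* of at most 0.05. Rescaling libraries to the same total gave 230 (43, 187) and moved the median log2 difference of all genes from -0.02 to -0.11. The pathway lists had 0 calls, and 2 each with edgeR, DESeq2, study number as a covariate and study numbers up to 150. The other P450 genes had 1 call, and 0 with a minimum of 20 (fewer genes tested) and 0 after adjustment, and for study numbers up to 150 the 1 call was *Cyp51*, higher, in place of *Cyp39a1*. The CV of *Cyp4f14* in *b6/b6* mice was 94.3%, and 38.7% without mice 6 and 12. Except where stated, the cause was not tested.

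No correlation passed its threshold under any alternative. Those near 0 changed sign: *Cyp4f16* with C/P kcal to -0.124 (rescaled) and -0.0432 (study number line), *Cyp4f16* with total kcal to -0.0194 and -0.000582, *Cyp4f13* with *Cyp4f14* to -0.0472 without the 4 libraries least like the others, and *Cyp4f13* with *Cyp4f16* to -0.0356 (rescaled), -0.0409 (study number line) and -0.0144 (without the 4). The settings without 2 or 4 libraries were chosen after seeing the data. No minimum gave the same genes as the minimum of 5. No paired analysis was made because the labels give no pairing of mice between the genotypes.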
